A study of Mus musculus with 8 samples.

Results

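The genes described here are 10 mouse genes that set the brake and the accelerator of the G1 phase of the cell cycle: 7 genes of cyclin-dependent kinase (CDK) inhibitors and the 3 genes of D-type cyclins. They were picked by symbol from a table of 55536 genes, all 10 were found, and all 10 were among the 18266 genes with enough counts to be tested. D-type cyclins bind the kinases CDK4 and CDK6, and the pair starts the phosphorylation of the retinoblastoma protein that frees E2F transcription factors and lets a cell enter S phase. Inhibitors of the INK4 family bind CDK4 and CDK6 alone and keep the cyclin out, whereas inhibitors of the Cip/Kip family bind assembled cyclin and kinase pairs, including those of CDK2. In pancreatic β cells, which divide rarely in the adult, cyclin D2 is the D-type cyclin best known for growth of the cell mass, and p27, p18 and p16 are known brakes.

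The cells were Min6, an established mouse β-cell line that secretes insulin and, unlike islet cells, divides in culture. Every sample is labelled Min6 and was taken as such, although the RNA extraction text of the labels mentions islets. The control plasmid was pcDNA 3 without an insert, and the other was pGloMyc-Klf4, a plasmid for the zinc-finger transcription factor Klf4. All 8 cultures were labelled wild type and were transfected with Lipofectamine 3000, a lipid carrier of DNA, for 48 h, and polyadenylated RNA was sequenced from each. There were 4 libraries in each group, which the series calls biological replicates, with replicates 1 and 2 in batch 1 and replicates 3 and 4 in batch 2. The 2 plasmids are named differently and may differ in more than Klf4, Min6 is a single tumour-derived line, and the share of cells that took up plasmid is not given. RNA came from whole cultures, so a change in RNA per cell cannot be told apart from a change in the share of cells that express a gene.

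Library totals lay between 45417853 and 52731176 counts. Klf4 itself had 36.1 to 42.8 CPM (counts as a rate per library total, with TMM scaling) in the control libraries and 4530 to 5850 CPM in the Klf4 libraries. Its log2 fold change was 6.79 in batch 1 and 7.16 in batch 2, and these differed (edgeR interaction test, adjusted p = 0.0057). All 7 β-cell markers examined (Ins1, Ins2, Pdx1, Mafa, Nkx6-1, Slc2a2 and Iapp) were present, with a summed level of 24300 to 31100 CPM in control and 22700 to 31400 CPM in Klf4 libraries. Of these, Pdx1, Mafa and Iapp fell, and none rose, where 15.5% of all tested genes fell. The falls were small, with log2 fold changes of -0.12, -0.18 and -0.07. Within batch 1 the groups overlapped for Pdx1 and Mafa. The Mafa change differed between batches, at -0.05 in batch 1 and -0.30 in batch 2 (edgeR interaction test, adjusted p = 0.00817).

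With the Klf4 plasmid 6 of the 10 genes were higher and 2 lower. Cdkn1a, Cdkn1c, Cdkn2b, Cdkn2d, Ccnd1 and Ccnd3 rose, Cdkn1b and Ccnd2 fell, and Cdkn2a and Cdkn2c did not pass the test (edgeR's quasi-likelihood test with a batch term, adjusted p under 0.05 over all tested genes). The background is high, since 36.6% of all tested genes were called, 21.1% higher and 15.5% lower. The median log2 fold change was 0.19 over the 10 genes and -0.01 over all tested genes. In 5 of the 10 genes every Klf4 library lay outside the range of the control libraries, where 26.1% of all tested genes did so, 17.2% higher and 8.93% lower. Within each batch taken alone, the groups lay apart in the same direction for 8 of the 10 genes, against 39.5% of all tested genes. Of the 10, 9 passed the filter on low counts in every library, and Ccnd1 passed it through the Klf4 libraries alone. Ccnd1 is among the 6 higher genes, the 5 and the 8 of these counts, and its place there already required a difference. The sign of the change was the same in both batches for all 10 genes. For Cdkn2c the batch 1 value was -5e-04 (-0.09 in batch 2), which gives no direction. The share of all tested genes with the same sign in both batches was not counted. None of the 10 differed between batches by edgeR's interaction test, which called 0.766% of tested genes, nor by the DESeq2 Wald test. Without adjustment, 1 of the 10, Cdkn1a, had an interaction p under 0.05.

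**Figure D1:**
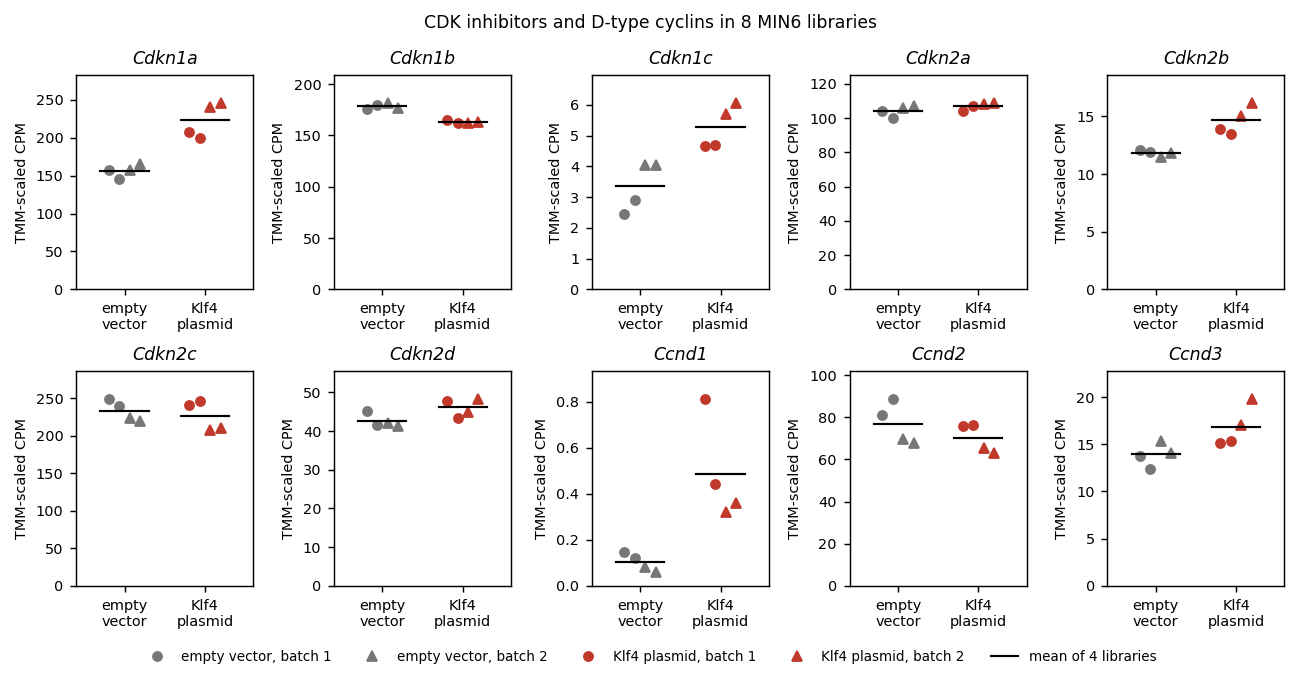
TMM-scaled CPM of each gene in the 8 libraries, on axes that start at 0, with batch 1 as circles, batch 2 as triangles and the mean of 4 libraries as a line. Cdkn1a, Cdkn1c, Cdkn2b and Ccnd1 lie higher in every Klf4 library than in any control library, Cdkn1b lies lower, and the other 5 genes overlap.

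Among the Cip/Kip genes all 3 changed, 2 higher and 1 lower. Cdkn1a encodes p21, the inhibitor best known as a target of p53 and also a known target of Klf4 in epithelial cells. It lies on chromosome 17, 29090976 to 29100727, plus strand (GENCODE M21, GRCm38). Its level was 157, 146, 157 and 165 CPM in control replicates 1 to 4 and 207, 199, 240 and 246 CPM in Klf4 replicates 1 to 4. The 2 batch 2 libraries were the highest of the Klf4 group, and the lowest Klf4 library stood above the highest control library. The mean rose from 156.4 ± 7.62 to 222.8 ± 23.5 CPM (n = 4, SD; log2 fold change 0.51 ± 0.04 SE; adjusted p = 6.44e-11, edgeR). The gap between a batch 1 change of 0.42 and a batch 2 change of 0.59 did not pass the threshold (edgeR interaction adjusted p = 0.188, unadjusted p = 0.00474). A gene of unsettled type on the other strand, AC167363.2, shares 273 exonic bases with Cdkn1a, and it also rose, to at most 0.834 CPM in any library.

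Cdkn1c encodes p57, a Cip/Kip inhibitor that is expressed from the maternal allele and is linked to exit from the cycle in the developing pancreas (chromosome 7, 143458339 to 143461050, minus strand). It had 115, 141, 199 and 195 counts in control and 241, 212, 300 and 320 counts in Klf4 libraries. As CPM these were 2.44, 2.9, 4.04 and 4.04 against 4.66, 4.68, 5.7 and 6.07, so every Klf4 library was higher than every control library although batch 2 was higher than batch 1 in both groups. The mean rose from 3.35 ± 0.812 to 5.28 ± 0.716 CPM (n = 4, SD; log2 fold change 0.66 ± 0.10 SE; adjusted p = 1.63e-05, edgeR), with 0.81 in batch 1 and 0.54 in batch 2. It shares 625 exonic bases with Gm44732 on the other strand, which had at most 4 counts in any library.

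Cdkn1b encodes p27, the third Cip/Kip inhibitor, which holds CDK2 inactive in resting cells and is controlled largely through its degradation (chromosome 6, 134920401 to 134925513, plus strand). It went the other way. Control libraries had 176, 180, 182 and 177 CPM and Klf4 libraries 165, 162, 162 and 163 CPM. The groups were narrow and did not overlap. The decrease was 8.69% of the control mean, from 178.9 ± 2.56 to 163.3 ± 1.41 CPM (n = 4, SD; log2 fold change -0.13 ± 0.03 SE; adjusted p = 0.000434, edgeR), and was -0.12 and -0.14 in the 2 batches.

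Promoter sequence from RefSeq (GRCm38.p6) is shown for the Cip/Kip genes that moved in opposite directions and for Cdkn2b, since Klf4 and its relatives are known to bind CACCC and GC-rich elements. Each is the 250 bases before an annotated start, 5′ to 3′ on the strand of the gene. Capitals mark the letters CACCC and GGGCGG, searched on both strands (GGGTG and CCGCCC are their reverse complements). Cdkn1a has 2 annotated starts, at chr17:29090729-29090978 and chr17:29093519-29093768. Cdkn1b is at chr6:134920151-134920400 on the plus strand and Cdkn2b at chr4:89311033-89311282 on the minus strand.
Cdkn1a, upstream start: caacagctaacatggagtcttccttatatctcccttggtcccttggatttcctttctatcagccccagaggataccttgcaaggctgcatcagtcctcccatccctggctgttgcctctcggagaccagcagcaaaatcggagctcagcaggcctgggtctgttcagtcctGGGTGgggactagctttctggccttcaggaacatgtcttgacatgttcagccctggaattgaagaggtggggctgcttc
Cdkn1a, downstream start: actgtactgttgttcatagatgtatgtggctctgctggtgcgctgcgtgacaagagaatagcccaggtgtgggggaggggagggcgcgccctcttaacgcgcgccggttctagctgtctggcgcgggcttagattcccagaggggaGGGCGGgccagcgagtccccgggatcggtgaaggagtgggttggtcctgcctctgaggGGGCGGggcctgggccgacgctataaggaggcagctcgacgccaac
Cdkn1b: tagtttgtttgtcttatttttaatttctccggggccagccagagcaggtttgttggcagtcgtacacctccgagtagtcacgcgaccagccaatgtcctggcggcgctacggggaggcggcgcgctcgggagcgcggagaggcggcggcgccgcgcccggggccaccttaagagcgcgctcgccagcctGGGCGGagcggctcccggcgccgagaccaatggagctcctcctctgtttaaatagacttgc
Cdkn2b: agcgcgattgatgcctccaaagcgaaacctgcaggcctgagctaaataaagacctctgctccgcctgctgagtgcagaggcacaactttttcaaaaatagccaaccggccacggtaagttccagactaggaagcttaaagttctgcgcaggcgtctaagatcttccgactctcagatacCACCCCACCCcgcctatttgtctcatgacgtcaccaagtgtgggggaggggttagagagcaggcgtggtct

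The upstream Cdkn1a sequence holds 1 GGGTG, 79 bases before the start, and the downstream one holds GGGCGG at 104 and 46 bases before the start. Cdkn2b has a pair of CACCC runs side by side, at 71 and 66 bases before the start. The Cdkn1b sequence holds GGGCGG at 61 bases before the start and no CACCC. RefSeq windows were found for 7 of the 10 genes (all but Cdkn1c, Ccnd1 and Ccnd2), 11 windows in all, each with 250 bases before and 50 after a start. CACCC stood in 9 of these 11 windows and in 57.5% of 32851 windows of all genes. GGGCGG stood in 9 of 11 and in 35.7% of all windows, and the longer CACACCC, every match of which is also a CACCC match, in 0 of 11 and in 7.95% of all windows. CACCC and CCGCCC can share bases, as they do in 1 Ccnd3 window. Each of the 7 genes with a window had at least 1 of these letter runs, whether it rose (Cdkn1a, Cdkn2b, Cdkn2d and Ccnd3), fell (Cdkn1b) or did not pass the test (Cdkn2a and Cdkn2c), and a match is only a description of the sequence.

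Of the 4 INK4 genes, 2 rose and 2 did not pass the test. Cdkn2b encodes p15, an inhibitor known for its induction by TGF-β (chromosome 4, 89306299 to 89311039, minus strand). Its values were 12.1, 11.9, 11.5 and 11.8 CPM in control and 13.9, 13.5, 15 and 16.2 CPM in Klf4 libraries. Control libraries were within 1 CPM of each other, and all Klf4 libraries were above them, the 2 of batch 2 most. The mean rose from 11.8 ± 0.276 to 14.6 ± 1.21 CPM (n = 4, SD; log2 fold change 0.31 ± 0.06 SE; adjusted p = 0.000537, edgeR), by 0.19 in batch 1 and 0.42 in batch 2 (edgeR interaction adjusted p = 0.494).

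Cdkn2a is the neighbour of Cdkn2b and encodes, from 2 promoters and in different reading frames, the inhibitor p16 and the protein Arf, which a count per gene does not separate (chromosome 4, 89274471 to 89294653, minus strand). It had 104, 99.8, 106 and 107 CPM in control and 104, 107, 108 and 109 CPM in Klf4 libraries. The groups overlapped over all 8 libraries, although within each batch the Klf4 libraries were higher, and the log2 fold change was 0.04 with a 95% interval of -0.02 to 0.10 (edgeR adjusted p = 0.346). It was -0.06 with an offset for GC content and length, also without passing the threshold. Cdkn2a and Cdkn2b lie 11.6 kb apart, and whether their changes differ was not tested.

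Cdkn2c encodes p18 (chromosome 4, 109660876 to 109667189, minus strand), an inhibitor known to restrain growth of endocrine tissues. Control libraries had 249, 239, 224 and 220 CPM and Klf4 libraries 241, 246, 208 and 210 CPM. Batch separated these values more than plasmid did, with batch 1 above batch 2 in both groups. The log2 fold change was -0.04 with a 95% interval of -0.10 to 0.01 (edgeR adjusted p = 0.24). It passed as lower with the offset for GC content and length, at -0.14, and without control replicate 2, at -0.08.

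Cdkn2d encodes the INK4 inhibitor p19 (chromosome 9, 21288410 to 21291407, minus strand), a protein other than Arf. Control libraries had 45.3, 41.6, 42.1 and 41.4 CPM and Klf4 libraries 47.9, 43.3, 45 and 48.3 CPM, so control replicate 1 lay above 2 of the Klf4 libraries. The mean went from 42.6 ± 1.82 to 46.1 ± 2.41 CPM (n = 4, SD; log2 fold change 0.12 ± 0.04 SE; adjusted p = 0.0425, edgeR). This call was lost under 13 of 19 alternatives, among them the omission of control replicate 2, 3 or 4 or of Klf4 replicate 1, 3 or 4 (adjusted p 0.0573 to 0.205, log2 fold change 0.08 to 0.12). With the offset for GC content and length the log2 fold change was 0.06 (adjusted p = 0.266).

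All 3 D-type cyclin genes changed, Ccnd1 and Ccnd3 higher and Ccnd2 lower. Ccnd2 carried most D-type cyclin RNA in these cells (chromosome 6, 127125162 to 127152193, minus strand). Control libraries had 81.3, 88.7, 69.6 and 67.8 CPM and Klf4 libraries 76.1, 76.2, 65.5 and 62.9 CPM. Batch 1 was above batch 2 in both groups, so the groups overlapped over all 8 libraries, but within each batch both Klf4 libraries lay below both control libraries. The mean fell from 76.8 ± 9.9 to 70.2 ± 6.96 CPM (n = 4, SD; log2 fold change -0.13 ± 0.03 SE; adjusted p = 0.0056, edgeR), with -0.16 and -0.10 in the 2 batches. Without a batch term the call was lost (adjusted p = 0.355).

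Ccnd3, the D-type cyclin best known in lymphocytes and muscle, lies on chromosome 17, 47505051 to 47599691, plus strand. It had 13.8, 12.4, 15.4 and 14.1 CPM in control and 15.1, 15.3, 17 and 19.8 CPM in Klf4 libraries. The highest control library, of batch 2, lay above both Klf4 libraries of batch 1, while within a batch the Klf4 libraries were higher. The mean rose from 13.9 ± 1.19 to 16.8 ± 2.19 CPM (n = 4, SD; log2 fold change 0.27 ± 0.06 SE; adjusted p = 0.00169, edgeR), by 0.21 and 0.32 in the 2 batches. Without a batch term the adjusted p was 0.0636. The gene shares 361 exonic bases with Bysl on the other strand, which had 56.9 to 62.1 CPM over all libraries and did not pass the test (log2 fold change -0.06, adjusted p = 0.244).

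Ccnd1, the cyclin most often raised by growth factors in epithelial cells, was close to silent in Min6 (chromosome 7, 144929931 to 144939925, minus strand). It had 7, 6, 4 and 3 counts in control and 42, 20, 17 and 19 counts in Klf4 libraries. Klf4 replicate 1 was the highest, and the lowest Klf4 library had more counts than any control library. Pooled over libraries this was 20 against 98 counts, a ratio of 4.68 (exact 95% interval 2.87 to 8, counting error only). The fitted log2 fold change was 2.20 ± 0.40 SE (adjusted p = 0.000115, edgeR), and 2.20 and 2.21 in the 2 batches. Since Ccnd1 passed the filter on low counts through the Klf4 libraries alone, its place among the tested genes already required a difference. Its 3' end shares 1100 exonic bases with LTO1 on the other strand, which had 12.3 to 16.8 CPM in control and 14.3 to 16 CPM in Klf4 libraries. Whether reads were assigned by strand is not given in the sources used here, and the part of LTO1 reads in the Ccnd1 counts was not tested. Even after the rise Ccnd1 stood at 0.323 to 0.813 CPM.

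**Figure D2:**
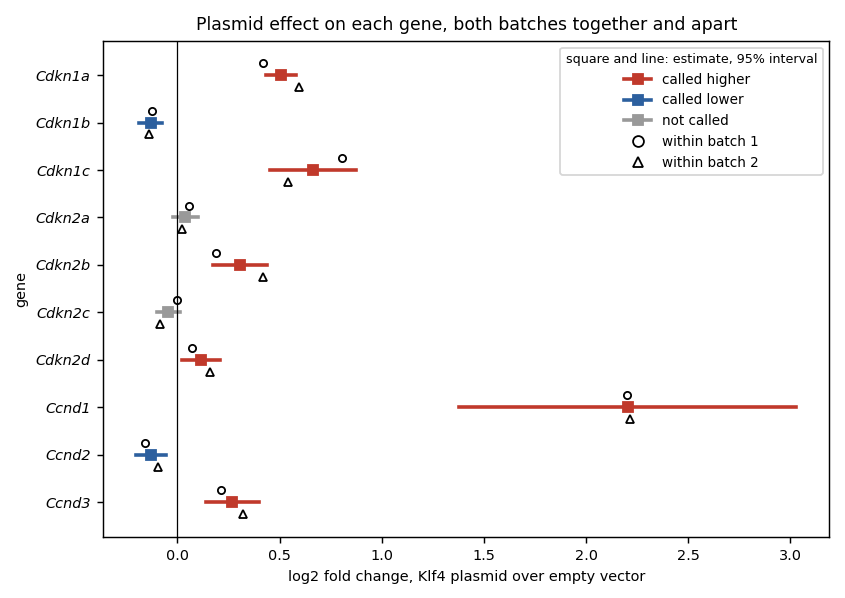
Log2 fold change of the Klf4 plasmid over the empty vector for each gene (x axis), as a square with its 95% interval from edgeR, and the values within batch 1 (circle) and batch 2 (triangle). The intervals of Cdkn2a and Cdkn2c include 0, and that of Ccnd1, at 1.38 to 3.03, is the widest.

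Levels were compared between genes only as CPM per kilobase of annotated exon. The length was the union of all annotated exons of a gene, 9409 bases for Ccnd2, 8775 for Ccnd3 and 1172 for Cdkn2a. Where the transcripts present are shorter than this union, the level comes out too low. The order and the sums therefore depend on the annotation. In control libraries Cdkn2a and Cdkn2c led, with 85.1 to 91.5 and 81.7 to 92.5 CPM per kb. They were followed by Cdkn1a (41.2 to 46.4), Cdkn1b (38.8 to 39.9) and Cdkn2d (26.3 to 28.8), then Cdkn2b (8.25 to 8.73) and Ccnd2 (7.2 to 9.43), Cdkn1c (1.2 to 1.98) and Ccnd3 (1.42 to 1.75), and last Ccnd1 (0.0132 to 0.0316). The ranges overlapped for Cdkn2a with Cdkn2c, for Cdkn2b with Ccnd2 and for Cdkn1c with Ccnd3, so the means do not settle their order. For Cdkn2a and Cdkn2c the order changed with batch. Cdkn2c was higher in both control libraries of batch 1 (92.5 and 88.9 against 88.4 and 85.1). It was lower in both of batch 2 (83.5 and 81.7 against 90.9 and 91.5). The order was the same in Klf4 libraries, where only the ranges of Cdkn2a and Cdkn2c still overlapped among genes next to each other.

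The 7 inhibitor genes summed to 291 to 303 CPM per kb in control and 314 to 321 CPM per kb in Klf4 libraries, with no overlap. The share of Cdkn1a in this sum was 14.2% to 15.7% in control and 17.8% to 21.5% in Klf4 libraries, the share of Cdkn1b 12.8% to 13.6% and 11.2% to 11.5%, and that of Cdkn2c 27.7% to 30.6% and 24.3% to 29.2%. The 3 D-type cyclins summed to 8.82 to 10.9 CPM per kb in control and 8.97 to 9.97 in Klf4 libraries, with overlap. Ccnd2 made up 80.7% to 86.7% of the cyclin sum in control and 74.1% to 81.5% in Klf4 libraries, and Ccnd1 0.15% to 0.308% and 0.765% to 1.73%. The sum of inhibitors over the sum of D-type cyclins was 26.8 to 33.5 in control and 31.6 to 35.6 in Klf4 libraries, ranges that overlap over all libraries. Within each batch both Klf4 libraries had the higher ratio, 31.7 and 31.6 against 29.6 and 26.8 in batch 1 and 35.1 and 35.6 against 32.2 and 33.5 in batch 2. The inhibitor sum holds every Cdkn2a count, of which the part from Arf is not separated. These sums are descriptions of RNA and carry no test.

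**Figure D3:**
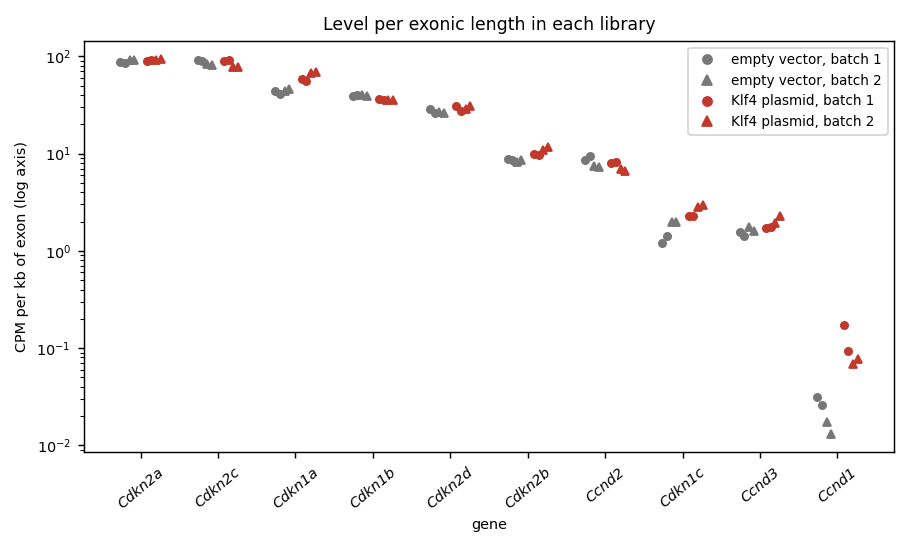
CPM per kilobase of exon for each gene in each library on a log axis, ordered by the control mean, with grey for the empty vector, red for the Klf4 plasmid, circles for batch 1 and triangles for batch 2. The D-type cyclins lie in the lower part of the order, and Ccnd1 stays under 0.2 CPM per kb in every library.

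The rest of the G1/S pathway was examined with a list of 55 genes, all tested. Of these 17 changed (30.9%, against 36.6% of all tested genes), 8 higher and 9 lower, with a median log2 fold change of -0.01, the same as over all tested genes. With scaling factors taken from genes whose mean log2 CPM reached 6, 15 changed, 13 higher and 2 lower, so the direction split of this list depends on scaling. Under every alternative run that tested them, 5 genes kept their call, all higher. They were E2f2, E2f3, Cdc25b, Ezh2 and Cdk6, which was not tested with the filter at 1 CPM. The other 12 lost their call under at least 1 alternative run. Of these, 9 (Cdk7, Ccne1, Rbl2, E2f5, E2f7, Tfdp1, Skp2, Kmt2a and Foxo1) lost it in at least 1 of the 8 fits that left out a library. Each of the 8 libraries ended at least 1 of these calls when left out.

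Of the kinases that D-type cyclins and inhibitors act on, Cdk4 had a log2 fold change of -0.04 (edgeR adjusted p = 0.26) and Cdk2 of 0.05 (adjusted p = 0.366), and neither passed the test. Cdk6, the partner of D-type cyclins that shares its role with Cdk4, was nearly silent in control, with 0, 5, 4 and 5 counts, and had 28, 28, 21 and 26 counts in Klf4 libraries. This is a ratio of 7.03 over pooled counts (exact 95% interval 4.01 to 13.3, counting error only; log2 fold change 2.77, SE 0.47, edgeR adjusted p = 5.72e-05). Like Ccnd1, Cdk6 passed the low-count filter through the Klf4 libraries alone. It shares 368 exonic bases with Gm17590 on the other strand. Cdk7, the kinase that activates other CDKs, fell from 28.8 ± 1.06 to 25.9 ± 2.14 CPM (n = 4, SD; log2 fold change -0.16; edgeR, adjusted p = 0.0167).

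Of the later cyclins only Ccne1, the partner of CDK2 at the G1/S boundary, passed the test, with 40.8 ± 1.26 CPM in control and 45.2 ± 3.48 CPM in Klf4 libraries (SD, n = 4; log2 fold change 0.15, edgeR adjusted p = 0.0149). Without Klf4 replicate 4 the log2 fold change of Ccne1 was 0.09 (adjusted p = 0.13). Among the pocket proteins, which hold E2F factors in check, Rb1 did not pass (log2 fold change -0.03, adjusted p = 0.608). Rbl1 fell from 38.6 ± 3.22 to 33.7 ± 2.23 CPM (n = 4, SD; log2 fold change -0.20; edgeR, adjusted p = 0.000337) and Rbl2 by 0.12 on the log2 scale (adjusted p = 0.0407, and 0.0573 with the replicate block).

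Of 10 E2F and DP factors 3 were higher and 3 lower, where 21.1% of all tested genes were higher and 15.5% lower. With scaling factors from genes whose mean log2 CPM reached 6, E2f5 and Tfdp1 lost their calls (edgeR adjusted p = 0.111 and 0.256). E2f2, an activator of S-phase genes, rose from 32.9 ± 1.75 to 40.4 ± 1.93 CPM (n = 4, SD; log2 fold change 0.30 ± 0.04 SE; adjusted p = 2.86e-06, edgeR). E2f3, another activator, rose from 22.7 ± 1 to 27 ± 0.443 CPM (log2 fold change 0.25, SE 0.05, adjusted p = 0.000116). E2f4, which acts mainly as a repressor with pocket proteins, fell from 63.2 ± 3.09 to 57.3 ± 2.73 CPM (log2 fold change -0.14, SE 0.04, adjusted p = 0.0068). Smaller or less steady calls were those of E2f5 (log2 fold change -0.17, adjusted p = 0.0406, and 0.0636 with the replicate block), E2f7 (0.13) and Tfdp1 (-0.08, adjusted p = 0.0302, and 0.0523 with the replicate block). E2f1 did not pass (log2 fold change -0.04, adjusted p = 0.319).

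Cdc25b, a phosphatase that removes inhibitory phosphates from CDKs, rose from 80.1 ± 6.63 to 93.6 ± 6.53 CPM (n = 4, SD; log2 fold change 0.23 ± 0.03 SE; adjusted p = 3.64e-06, edgeR). Skp2, the ubiquitin ligase subunit that marks p27 protein for degradation, fell by 0.13 on the log2 scale (adjusted p = 0.0352). Among regulators known to act on the inhibitor genes, Ezh2, the histone methyltransferase that represses Cdkn2a, rose from 79.3 ± 1.62 to 90.3 ± 1.81 CPM (log2 fold change 0.19, SE 0.03, adjusted p = 3.8e-05). Foxo1, a factor that can activate Cdkn1b, rose by 0.12 (adjusted p = 0.0295). Kmt2a, a histone methyltransferase that works with menin, had a log2 fold change of -0.16 (adjusted p = 0.0455), which was -0.08 without control replicate 2. Men1, the menin gene, did not pass (0.09, adjusted p = 0.0602).

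Reads of genes that overlap on opposite strands cannot be told apart if strand was not used in counting. Among the called pathway genes this touches Rbl2 (693 exonic bases shared with Aktip and 892 with Gm45464), Foxo1 (674 with Gm20402), Kmt2a (378 with AC061963.1), Mcm7 (321 with Ap4m1) and Ezh2 (174 with Gm26625) as well as Cdk6, and smaller stretches of Cdc25b, E2f7 and E2f5.

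Of 15 replication and division genes 1 was called (6.67%, against 36.6% of all tested genes). Mcm7, a subunit of the replicative helicase, had a log2 fold change of -0.08 (edgeR adjusted p = 0.0178). The other 14 lay between -0.10 and 0.06 on the log2 scale. Among them were Mki67, the common marker of dividing cells (-0.06, adjusted p = 0.217), Pcna (0.05, adjusted p = 0.19) and Top2a (0.01, adjusted p = 0.849). These values join both batches. The Mki67 change differed between batches, at -0.17 in batch 1 and 0.05 in batch 2 (edgeR interaction adjusted p = 0.0238). Cdc20 had -0.13 and 0.10, a gap that did not pass the threshold (edgeR interaction adjusted p = 0.0801).

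**Figure D4:**
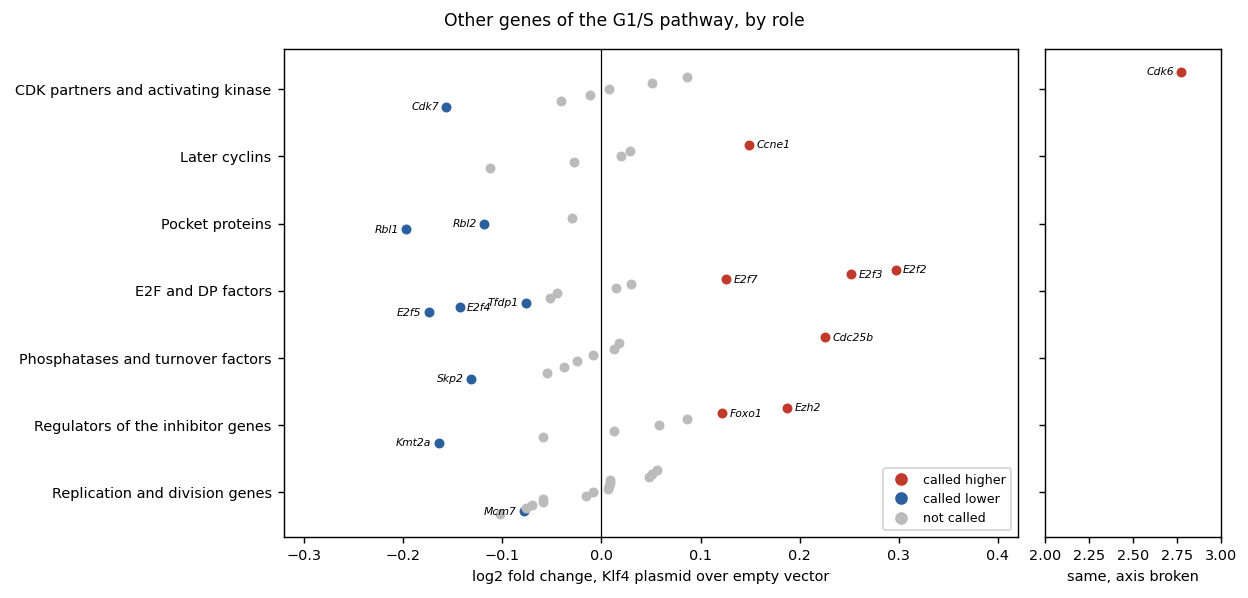
Log2 fold change of 55 other G1/S genes by role, with called genes in red (higher) or blue (lower) and named, and the axis broken between the panels. Only Cdk6 lies beyond 0.3 in size, and the replication and division genes lie between -0.10 and 0.06.

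Neighbours on the chromosome were described for position, taking the 2 nearest tested genes on each side of each gene. Of 36 such genes that are not themselves among the 10, 12 changed (33.3%, against 36.6% of all tested genes), 8 higher and 4 lower. Around Cdkn1c, in a cluster of imprinted genes, Slc22a18, 12.7 kb away, went from 0.422 to 7.86 CPM (log2 fold change 4.22, SE 0.22, edgeR adjusted p = 2.78e-13). Phlda2, 40.5 kb away, had 0.0875 CPM in control and 0.724 CPM in Klf4 libraries, and the antisense RNA Kcnq1ot1 of the same cluster fell from 7.88 to 5.48 CPM (-0.52, adjusted p = 0.00129). Next to Cdkn1a, Rab44, 13.4 kb away, was near 0 in control at 0.0159 CPM and had 1.2 CPM in Klf4 libraries. On the 2 sides of Ccnd1, Bc1 at 15.3 kb fell by 0.36 on the log2 scale (adjusted p = 0.00208), Tpcn2 at 247 kb rose by 0.77, and Mrgprf at 361 kb had 0.124 CPM in control and 2.32 CPM in Klf4 libraries. Phlda2, Rab44 and Mrgprf had control means under the filter cutoff of 0.204 CPM and entered the test through the Klf4 libraries, so that their calls already required a difference. Next to Ccnd3, AI661453 rose from 12.3 to 22.1 CPM (0.84, adjusted p = 1.8e-11). The other calls were Tigar next to Ccnd2 (-0.11), Rnf11 next to Cdkn2c (-0.10), Slc44a2 next to Cdkn2d (0.27) and AC167363.2, which overlaps Cdkn1a (1.21). None of the tested neighbours of Cdkn1b, which fell, passed the test, and neither did any of those of Cdkn2b, which rose. Lockd, 3.58 kb from Cdkn1b, had a log2 fold change of 0.05 (edgeR adjusted p = 0.584).

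The genes most like the 2 called genes of largest change were sought among 12870 genes whose mean log2 CPM reached 1, by the root mean square difference between centred log2 CPM profiles over the 8 libraries. For Ccnd1 they were Dsc2 (difference 0.286), Lrrc15 (0.301) and Elf4 (0.303), which rose by 1.72, 1.60 and 1.70 on the log2 scale. For Cdkn1c they were Cpne5 (0.087), Ppp1r18 (0.0926) and L1cam (0.0951), which rose by 0.71, 0.75 and 0.70. Since these genes were picked for a like profile over the same 8 libraries, their like rise follows from the choice and is no separate result.

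Some markers of other cell types were also higher in Klf4 libraries. The share of all tested genes that rose was 21.1%. Of 6 fibroblast markers 4 were tested and 3 rose (Dcn, Pdgfra and Col1a1). The summed level of the 6 was 2.61 to 3.84 CPM in control and 21 to 27.4 CPM in Klf4 libraries. Most of the latter sum was Dcn, with mean levels of 0.0461 CPM in control and 17.6 CPM in Klf4 libraries. Col1a2 did not pass (log2 fold change 0.09, edgeR adjusted p = 0.734), Lum had 0 counts in every library and Col3a1 at most 3. Of 4 endothelial markers 3 were tested and Cdh5 rose, from 0 counts in every control library to 14 to 28 counts. The sum was 4.1 to 4.42 and 5.01 to 5.28 CPM. Dcn, Pdgfra and Cdh5 were under the filter cutoff in every control library, so that their calls too required a difference. Of 4 acinar and ductal markers 2 were tested and Krt19 rose, with sums of 1.5 to 4.24 and 4.04 to 6.81 CPM. Prss2 had 0 counts in every library. Of 4 immune markers 2 had enough counts to be tested and neither passed in edgeR (adjusted p = 0.453 and 0.479), with sums of 5.94 to 6.55 and 5.97 to 7.4 CPM. The part of these genes' cells, if any, in the changes of the cell cycle genes was not tested.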

How the data were processed

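The authors deposited whole-number read counts per gene, 1 column for each of 8 libraries. The name of the deposited table mentions trimming with cutadapt, and the submitters' processing notes list FastQC, STAR, featureCounts, edgeR and the build mm10, without versions or a strand setting. Gene positions, exonic lengths and overlaps came from GENCODE M21 (GRCm38).

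Counts were fitted in edgeR 4.0.16 (R 4.3.3) with filterByExpr (minimum count 10), TMM factors and terms for batch and plasmid, the tool and correction that the series' description gives. Benjamini-Hochberg adjustment ran over 18266 genes, with a threshold of 0.05. Intervals are 95%. The members and gene lists were chosen with earlier results of these data known. All 10 members are described, as are called pathway genes, up to 4 of largest change per role in full. Same-numbered libraries of the 2 groups had correlated deviations (0.459 to 0.614 over 10485 genes), and -0.0463 and 0.0783 once batch means were removed, so the numbers pair libraries by batch. Pairs of libraries differed by more than sampling noise (chi-square per degree of freedom 4.23 to 23.3). P-values measure the spread between these cultures. Tested on simulated data (18064 genes, 200 of them changed, 4 against 4), the procedure recovered 99% of changes of 0.5 on the log2 scale. For changes of 1 it recovered 100%, with 12 false calls at either size. Changes under 0.5, which most calls described here were, were not part of this check. It also held far fewer changed genes than were called in these data. Alternatives used DESeq2 1.42.0 and limma 3.58.1, and figures Python 3.11.15.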

Additional observations from a re-analysis of the deposited data

How the results depend on the processing

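Of the 10 genes, 5 (Cdkn1a, Cdkn1b, Cdkn1c, Cdkn2b and Ccnd1) kept direction and call under all alternatives that could be fitted, and Ccnd2 and Ccnd3 lost theirs only without a batch term. Leaving out the batch term, in place of a model with batch, gave 4116 called genes in all (6684 with it), 5 of the 10 genes (8 with it) and 5 of the pathway list (17 with it). The list had 7 calls at an adjusted p under 0.01 and 11 without control replicate 3, with a range of 11 to 19 over the fits that left out a library. Over the same fits the 10 genes had 7 or 8 calls, all genes 5889 to 7074 and neighbouring genes 10 to 13. Cdkn2a changed sign, without passing the threshold, to -0.0643 with a GC and length offset and to -0.0645 with that offset and the replicate block. With either offset the split of the 10 genes was 5 higher and 3 lower. Scaling on genes whose mean log2 CPM reached 6 gave 4387 higher and 1638 lower genes, against 3856 and 2828. The interaction test called 140 genes, and 265 with no filter. The replicate block gave 6284 called genes, 8 of the 10 and 14 of the pathway list, and changed no call among the 10. Ccnd1 and Cdk6 could not be tested with the filter at 1 CPM. Their few counts leave wide intervals, given beside their values. The cause of these shifts was not tested.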

Other observations

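Several of these genes differed between the batches within a group, which is no comparison of the study and is given without a test. In control libraries, batch 1 and batch 2 means were 85 and 68.7 CPM for Ccnd2, 244 and 222 CPM for Cdkn2c, 2.67 and 4.04 CPM for Cdkn1c and 13.1 and 14.7 CPM for Ccnd3. In Klf4 libraries they were 76.2 and 64.2, 244 and 209, 4.67 and 5.89, and 15.2 and 18.4 CPM, in the same order of genes. In each of these 4 genes the 2 batches did not overlap in either group and moved the same way in both. For Cdkn2b the batches moved in opposite ways, from 12 to 11.6 CPM in control and from 13.7 to 15.6 CPM in Klf4 libraries. No library stood far from the other 3 of its group in any of 20 comparisons of a gene in a group by Dixon's gap.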
